A study of Paralichthys olivaceus with 2 samples.

Results

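The microRNAs (miRNAs, short RNAs that guide the repression of matching mRNAs) miR-23, miR-24 and miR-27 were examined during metamorphosis of the Japanese flounder, Paralichthys olivaceus, in which a symmetric swimming larva becomes an asymmetric fish of the sea floor under the drive of thyroid hormone. RNA of whole larvae was used. The members were taken by name: every probe for miR-23, miR-24 or miR-27 of zebrafish (dre-) or pufferfish (fru-, tni-), with or without a letter and without a star. This gave 8 probes of 263 for conserved miRNAs and of 987 on the array, 2 for miR-23, 1 for miR-24 and 5 for miR-27, all under zebrafish names. One single-colour (Cy5) array held RNA of larvae at 17 days post hatching (dph), labelled pre-metamorphic, and 1 held RNA at 29 dph, labelled mid-metamorphic. The larvae were pooled 5 to a tube, and the labels give no strain, sex or treatment other than an anaesthetic at collection. Since each stage has 1 array, the stages are compared without replicates and without a test. Errors below come from the 3 spots that a probe has on an array, so that they describe technical spread alone.

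In vertebrates the genes of miR-23, miR-27 and miR-24 lie together in paralogous clusters, each read as a single primary transcript from which the 3 mature miRNAs are cut. In mouse and human endothelial cells miR-23 and miR-27 promote vessel sprouting, and in zebrafish miR-23 limits hyaluronan synthesis in the heart valve region. In mouse, miR-27 represses Pax3 in muscle progenitors, and in human cells miR-24 lowers activin signalling during red blood cell formation. The clusters' places in the flounder genome were not analysed here.

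The target sequences of the probes are shown because each family has its own seed, the stretch of bases 2 to 8 that selects targets. They are written 5′ to 3′ with the seed in capitals.
dre-miR-23a: aUCACAUUgccagggauuucca
dre-miR-23b: aUCACAUUgccagggauuacca
dre-miR-24: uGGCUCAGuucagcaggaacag
dre-miR-27a: uUCACAGUggcuaaguuccgcu
dre-miR-27b: uUCACAGUggcuaaguucugca
dre-miR-27c: uUCACAGUgguuaaguucugc
dre-miR-27d: uUCACAGUggcuaaguucuuca
dre-miR-27e: uUCACAGUggcuaaguucagug

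No other conserved probe on the array had any of the 3 seeds. The seeds of miR-23 and miR-27 differ at 1 base, U7G, counted from 1 at the 5′ end of the miRNA, whereas the seed of miR-24 is unlike both. The targets of miR-23a and miR-23b differ by U19A alone. Those of miR-27a, miR-27b, miR-27d and miR-27e are identical over their first 18 bases and differ only in the last 4. The target of miR-27c differs from that of miR-27b by C11U and lacks its last base. Hybridization of 1 miRNA to the probe of a close relative was not tested, so each value below belongs to a probe.

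The arrays held 3968 spots each, with 3 spots per probe and 715 empty spots. The value of a spot is its mean density, a linear intensity judged from the values to be neither background-subtracted nor scaled. Detection asked that 50% or more of a probe's spots exceed the empty spots' mean by 3 SD, which set the limit to 68.7 at 17 dph and to 45.6 at 29 dph. The empty spots had a median of 45.6 at 17 dph and 38.8 at 29 dph, while all probe spots had medians of 55.4 and 139.4. Of the 252 conserved names 66 were detected at 17 dph and 126 at 29 dph. Among muscle miRNAs expected in whole larvae, miR-206 had a density of 1653 at 17 dph and 10711 at 29 dph, whereas miR-1, at 46.7, was below the limit at 17 dph and stood at 7729 at 29 dph. These are raw densities of only some of the 9 muscle names counted below. Whole larvae were used, so more cells of a type and more miRNA per cell cannot be told apart.

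All 8 probes were brighter at 29 dph than at 17 dph, and for all 8 the 3 spots at 29 dph lay above the 3 spots at 17 dph. The same held for 84.1% of the 126 conserved miRNAs detected on either array, while 2.38% had all spots lower, so the shared rise in raw density is near the background. Among the members detected on both arrays the rise was larger for the miR-23 probes than for miR-24 and miR-27b. The miR-24 and miR-27 families each have 1 probe in this comparison. At 17 dph 4 of the 8 were detected (miR-23a, miR-23b, miR-24 and miR-27b), and at 29 dph all 8 were. Of the 126 conserved miRNAs detected on either array, 66 were detected at 17 dph and 60 at 29 dph only. The members' split is thus near the background.

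The miR-23 probes had the steepest rises of the 4 members detected on both arrays. For dre-miR-23a the spot densities were 118.0, 109.9 and 128.3 at 17 dph and 1405, 1445 and 1478 at 29 dph. Each spot at 29 dph was far above all at 17 dph, and the mean was 12.2 times as high (118.8 ± 9.23 at 17 dph and 1443 ± 36.4 at 29 dph, SD over 3 spots). For dre-miR-23b the spots read 122.8, 139.6 and 150.9 at 17 dph and 897.8, 916.9 and 908.4 at 29 dph. The stages again did not overlap, and the mean density was 6.59 times as high. Above the median of the empty spots, the net density of miR-23a was 73.2 at 17 dph and 1404 at 29 dph, a ratio of 19.2. That of miR-23b was 92.2 and 869, a ratio of 9.42. Over the 66 miRNAs detected on both arrays the median of this ratio was 3.97, and miR-23a ranked 4th and miR-23b 11th.

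dre-miR-24, which has its own seed, had a smaller rise. Its spots read 114.1, 104.9 and 132.4 at 17 dph and 282.4, 247.2 and 261.9 at 29 dph. The stages did not overlap, with means of 117.1 ± 14.0 and 263.8 ± 17.7 (SD over 3 spots). The ratio of net densities was 3.14, below the median of 3.97, and it ranked 41st of 66.

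Among the miR-27 probes only dre-miR-27b was detected on both arrays. Its spots read 136.4, 107.2 and 132.1 at 17 dph and 252.0, 266.8 and 261.9 at 29 dph, so that the stages did not overlap. The means were 125.2 ± 15.8 and 260.2 ± 7.54 (SD over 3 spots), a ratio of net densities of 2.78 that ranked 45th of 66. The other 4 miR-27 probes had no spot above the limit at 17 dph and all 3 above it at 29 dph. For dre-miR-27e the spots were 50.6, 50.6 and 56.7 at 17 dph and 236.2, 219.9 and 230.8 at 29 dph. Its level at 29 dph was 5.03 times the detection limit of that array, and the 2 stages did not overlap. miR-27a had a mean density of 58.9 ± 4.99 at 17 dph and 83.7 ± 5.49 at 29 dph. For miR-27c the mean was 43.3 ± 0.731 at 17 dph, under the median of the empty spots, and 66.4 ± 6.32 at 29 dph. For miR-27d it was 48.5 ± 2.41 and 57.0 ± 3.72. At 29 dph these 3 probes stood at 1.84, 1.46 and 1.25 times the limit, close to it. The means of miR-27c and miR-27d at 29 dph were below the 17 dph limit of 68.7. Their detection at 29 dph thus rests on the lower limit of that array, 45.6. At 17 dph the mean of miR-27d was above this lower limit, whereas that of miR-27c was below it. The one passenger-strand probe of the families, miR-27c*, was below the limit on both arrays, at 43.8 ± 1.79 and 40.1 ± 0.908.

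**Figure D1:**
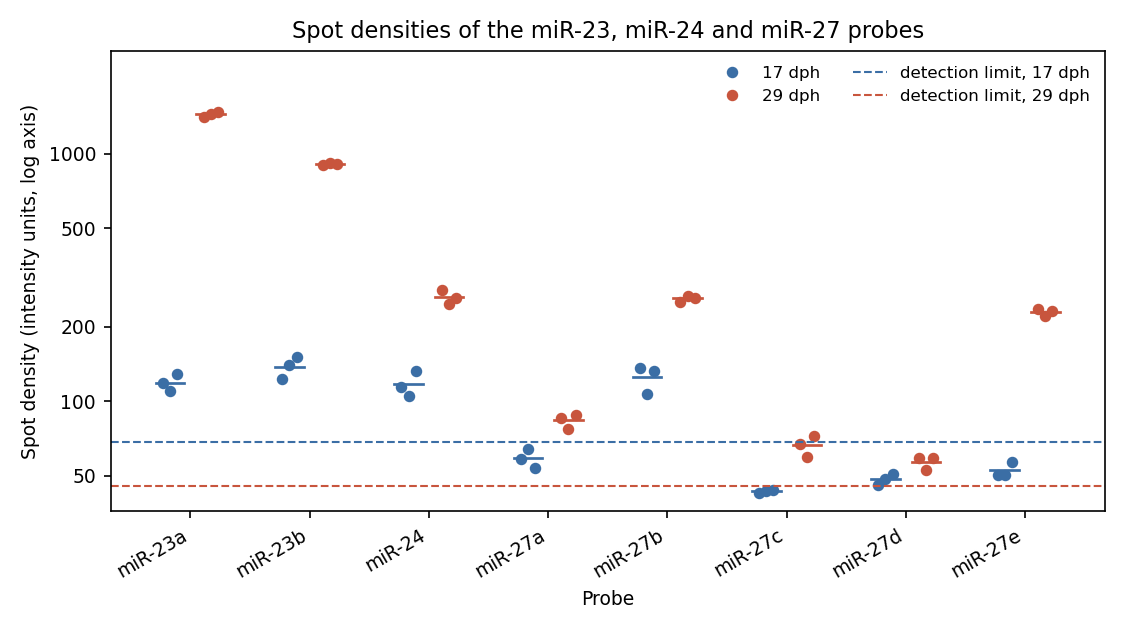
Density of each of the 3 spots (points) and their mean (bars) for the 8 probes at 17 dph and 29 dph, on a log axis of intensity units, with the detection limit of each array as a dashed line. The miR-23a spots reach 1405 to 1478 at 29 dph, whereas those of miR-24 and miR-27b stay between 247.2 and 282.4, and 4 miR-27 probes lie under the 17 dph limit at 17 dph.

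The comparison of the stages used background-corrected log2 signals that were quantile-normalized over all probe spots, which gives both arrays the same distribution and removes an overall difference. A call, higher or lower, required a log2 difference (29 dph minus 17 dph) with a size of 1 or more and spots of the stages that did not overlap. Of the 8 members 0 were called higher, 1 (miR-27b) lower and 7 neither. Of the 126 detected conserved miRNAs 8.73% were called higher and 17.5% lower, 26.2% in all, so the members' share is near the background. Of the members' log2 differences 4 lay above 0 and 4 below, and of the 126 detected miRNAs 51 lay above and 75 below. The members' median log2 difference was 0.043, against -0.29 over the 126, and both medians include probes below the limit at 17 dph. Over the 4 members detected on both arrays it was -0.37, against -0.70 over the 66.

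The normalized log2 signal of miR-23a was 8.23 ± 0.13 at 17 dph and 9.17 ± 0.029 at 29 dph (SD over 3 spots), a difference of 0.94 ± 0.077 (SE over spots). It ranked 4th of the 66 miRNAs detected on both arrays and missed the threshold of 1 by less than this error. The difference of miR-23b was 0.16 ± 0.096, with overlapping spot ranges. That of miR-24 was -0.91 ± 0.12, and its spots did not overlap. For miR-27b it was -1.03 ± 0.13, past the threshold by less than its error. Among the same 66, whose median was -0.70, miR-23b ranked 11th, miR-24 39th and miR-27b 45th. The call of miR-27b and the lack of a call for miR-23a and miR-24 therefore rest on amounts within the spot error.

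The 4 miR-27 probes below the limit at 17 dph had no detected level there. The 17 dph means of miR-27a, 58.9, and miR-27e, 52.6, were, like that of miR-27d, above the lower limit of 29 dph, 45.6. The log2 differences of the 4 signals were -0.52 for miR-27a, 0.34 for miR-27c, -0.076 for miR-27d and 0.63 for miR-27e. Under quantile normalization that of miR-27e lay above the 0.16 of miR-23b. The order reversed with no scaling, at 1.86 for miR-27e and 2.60 for miR-23b, and with each of the 3 scalings by a single factor. It did not reverse under the other ways of processing. Whether miR-27e lay above miR-23b thus depended on the scaling and on a 17 dph signal below the limit. Against the lowest detected signal at 17 dph, miR-27e was at least 1.02-fold higher at 29 dph, and the other 3 had no bound above 1. These bounds depended on the scaling. With no scaling they were 3.02-fold for miR-27e, 1.23-fold for miR-27a and 1.02-fold for miR-27c, while miR-27e had none above 1 with any of the 3 scalings by a single factor. The bound is the mean normalized log2 signal at 29 dph over the higher of that lowest signal and the probe's own. The 5 miR-27 probes had a median log2 difference of -0.076, or 0 with the 4 at their bounds and those without one at 0. The value of 0 follows by construction, since 3 of the 5 were set to 0.

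**Figure D2:**
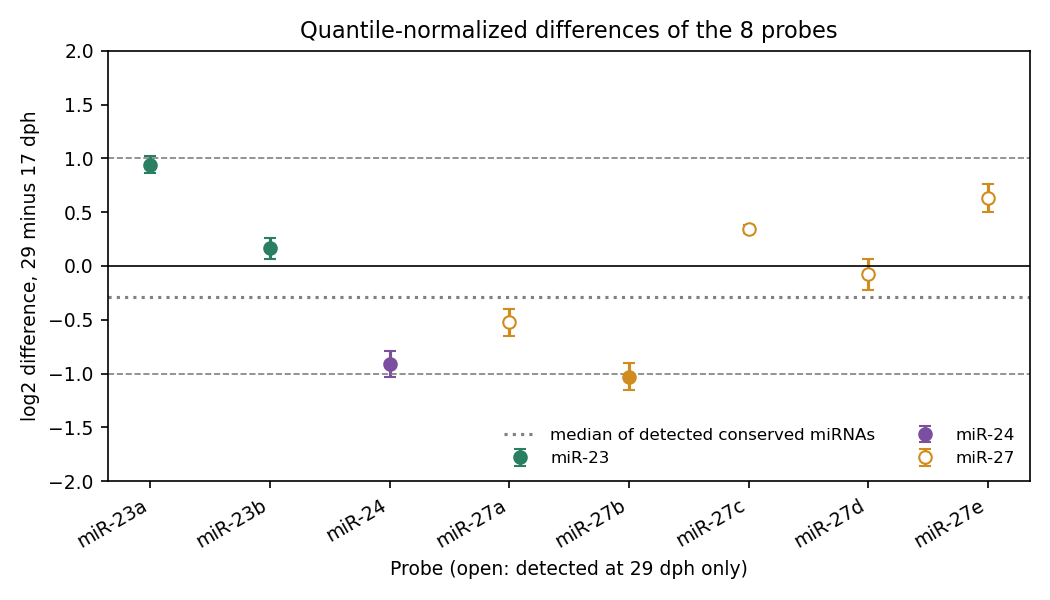
Quantile-normalized log2 difference (29 dph minus 17 dph) of each probe, with bars for the SE over the 3 spots of each array; dashed lines mark a log2 size of 1 and the dotted line the median of the detected conserved miRNAs, -0.29. miR-23a at 0.94 and miR-27b at -1.03 lie next to the thresholds, and open points are probes detected at 29 dph only. The dotted line includes miRNAs detected at 29 dph only. Over the 66 detected on both arrays the median was -0.70.

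The direction of the members depended on how the arrays were scaled to each other. With no scaling all 8 differences were positive, 4 members (miR-23a, miR-23b, miR-24 and miR-27e) were called higher and 0 lower, and the background was 50.8% higher and 0.794% lower. Over the 126 detected conserved miRNAs the median difference with no scaling was 1.07. The difference was then 3.45 for miR-23a, 2.60 for miR-23b, 1.09 for miR-24 and 0.99 for miR-27b. Over the 13 ways of scaling or taking the values, miR-23a was positive in all, from 0.57 to 3.45. miR-23b was positive in 12, from -0.28 to 2.60. Both miR-24 and miR-27b were negative in 12 and positive with no scaling alone, over ranges of -1.79 to 1.09 and -1.90 to 0.99.

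**Figure D3:**
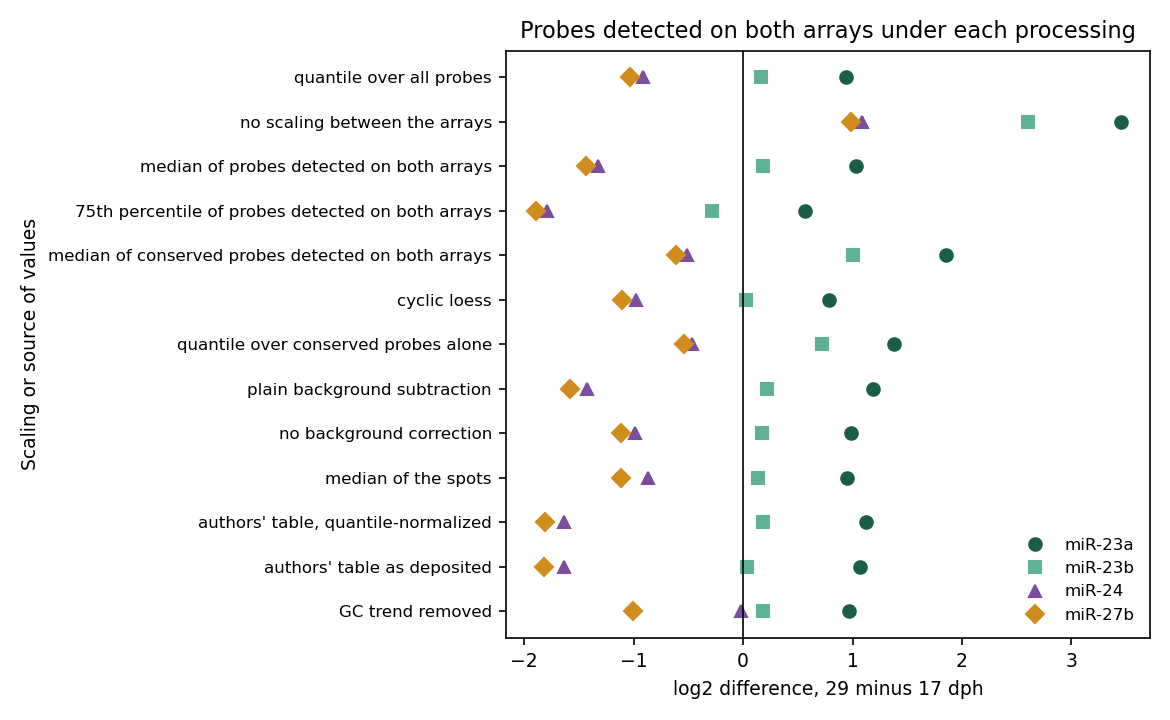
Log2 difference (29 dph minus 17 dph) of the 4 probes detected on both arrays under 13 ways of scaling the arrays or taking the values. The points shift together along the axis, miR-23a stays to the right of the other 3 and, except with the GC trend removed, miR-24 and miR-27b lie next to each other.

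The distance between members within the same pair of arrays moved less. It is unaffected when an array's background-corrected values, with their added offset of 50, are multiplied by a single factor. It describes unequal change of the probes' signals on this pair of arrays, not which member stayed level. At 17 dph the means of miR-23a, miR-23b, miR-24 and miR-27b were 1.73, 2.01, 1.71 and 1.82 times the detection limit. Each gap thus rests on low signals at 17 dph. miR-23a exceeded miR-27b by a log2 amount of 1.97 ± 0.15 (SE over spots), a 3.92-fold gap in their 29 to 17 dph ratios. This gap was positive in each of 10 ways of processing, from 1.90 to 2.89, of which the unscaled values and the 3 scalings by a single factor give the same gap by construction. The targets of these probes and of miR-23b have the same GC content, 45.5%, so a linear GC correction cannot move their gaps. miR-23b exceeded miR-27b by 1.19 ± 0.16, from 1.13 to 1.86 over the same 10. miR-23a exceeded miR-23b by 0.78 ± 0.12, from 0.66 to 1.03, although their targets differ by a single base.

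miR-23a exceeded miR-24 by a log2 amount of 1.85 ± 0.14 and miR-23b exceeded it by 1.07 ± 0.15. These gaps moved with GC content. The target of miR-24 is richer in GC, at 54.5%, and the log2 differences of 132 detected conserved probes had a linear slope of -0.095 per percent GC. With that trend removed miR-24 stood at -0.022, miR-23a exceeded it by 0.99 and miR-23b by 0.21. miR-24 and miR-27b differed by 0.12 ± 0.17, within the spot error, and by 0.99 with the GC trend removed. In the other ways of processing they differed by 0.078 to 0.19. The place of miR-24 between the other families was therefore not settled by these arrays.

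Within miR-27 only a bound can be set against miR-27b, since the other probes were below the limit at 17 dph. The bound of miR-27e exceeded the log2 difference of miR-27b by 1.06, and by 0.61 to 1.68 over 9 ways of processing. The lowest, 0.61, is shared by construction by the unscaled values and every scaling by a single factor. Both targets share their first 18 bases and their GC content.

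Candidate probes of like sequence gave a second reading of miR-27. The array carried PN-coded and PC-coded candidates beside the conserved probes, and 2 of them lie within a member's target. They are shown because each drops just the last base of its member. They are written with the seed in capitals.
PN27, within the target of miR-27b: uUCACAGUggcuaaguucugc
PN161, within the target of miR-27e: uUCACAGUggcuaaguucagu

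The spots of PN27 read 169.1, 197.8 and 158.5 at 17 dph and 525.1, 475.8 and 484.8 at 29 dph. It was detected on both arrays without overlap. Its normalized log2 difference of -0.93 ± 0.12 was above that of miR-27b by 0.10 ± 0.18, within the spot error. With no scaling it was above by 0.45 ± 0.14, past that error, and the range over 10 ways of processing was 0.083 to 0.45. Every scaling by a single factor repeats the unscaled value by construction. The spots of PN161 read 55.9, 58.8 and 61.4 at 17 dph, under the limit, and 463.6, 399.7 and 486.1 at 29 dph. Like miR-27e it was detected at 29 dph only. This likeness depends on the limit. With a limit of 54.9 at 17 dph, taken from the median of the empty spots, PN161 would pass there and miR-27e would not. PN161 was at least 1.61-fold higher at 29 dph under quantile normalization and 5.72-fold with no scaling. There was no bound above 1 when the arrays were aligned at the 75th percentile of their shared detected probes. The bound of PN161 exceeded the log2 difference of PN27 by 1.62, and by 1.08 to 2.47 over 8 ways of processing. The lowest, 1.08, is again shared by construction by the unscaled values and every scaling by a single factor. The targets of this pair differ by A19U and U21C from PN161 to PN27. The 2 readings of each member come from the same RNA and are not replicates.

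For miR-24 a further candidate, PC56, was named after its values were seen, since the stretch it shares with the member is 11 bases and the rule asked for 16. It has the seed of miR-24 and differs from its target by U10C and G22A. It is written with these bases in capitals.
PC56: uggcucaguCcagcaggaacaA

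The spots of PC56 read 58.2, 66.6 and 54.4 at 17 dph, all under the limit, and 142.7, 98.7 and 445.6 at 29 dph. At 29 dph 1 spot, the last, was brighter than the other two together, and the SD of 188.8 was near the mean of 229.0. Its log2 difference of 0.11 ± 0.43 and its gap to miR-24 are too uncertain to read. Another candidate, PC257, shares a longer stretch with miR-24, 15 bases, also short of the rule. PC257 was below the limit on both arrays, at 43.3 at 17 dph and 42.8 at 29 dph.

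**Figure D4:**
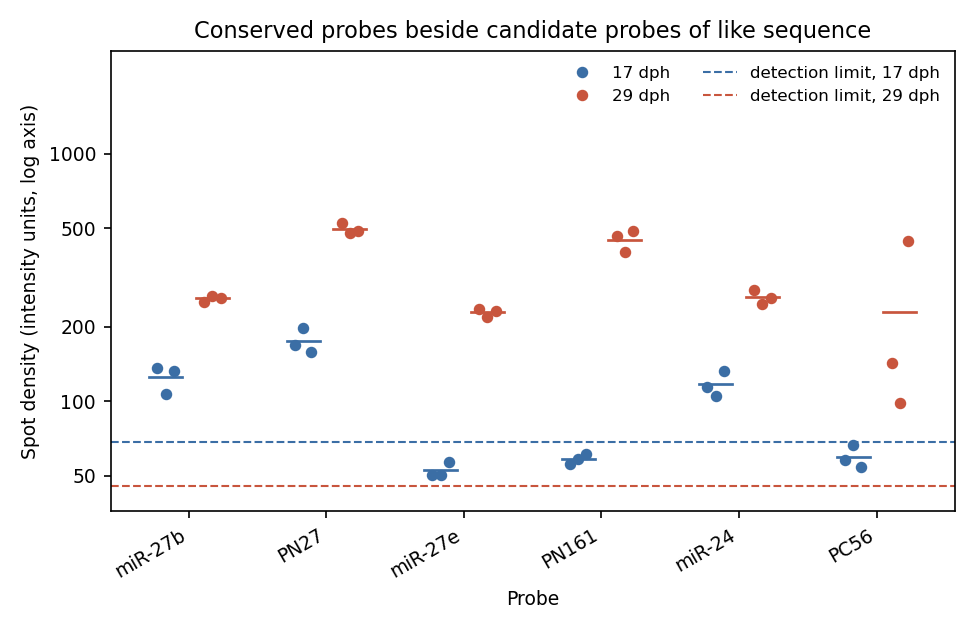
Density of each of the 3 spots (points) and their mean (bars) at 17 dph and 29 dph for miR-27b, miR-27e and miR-24, each beside the candidate probe of like sequence, on a log axis of intensity units with dashed detection limits. By the limits drawn, PN27 is above on both arrays like miR-27b, and PN161 only at 29 dph like miR-27e. The PC56 spots at 29 dph spread from 98.7 to 445.6.

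The authors' processed table gives 1 intensity per probe on a linear scale, by background and scaling steps that are not stated. Within each array its ranks follow the densities closely. Between the stages the direction can differ, since its values for miR-24 and miR-27b fall where the densities rise. Its columns have medians of 37.1 at 17 dph and 41.0 at 29 dph. In that table miR-23a stood at 227.1 at 17 dph and 476.7 at 29 dph, a ratio of 2.10, and miR-23b at 285.2 and 292.7, a ratio of 1.03. miR-24 stood at 229.7 and 74.1, a ratio of 0.323, and miR-27b at 255.8 and 72.4, a ratio of 0.283. The order of the 4 ratios was that of the scanner densities. miR-27e, below the limit at 17 dph, stood at 27.9 and 74.7 in the same table, a ratio of 2.67. This exceeded the ratio of miR-23a, whereas the density ratio of miR-27e, 4.35, was below the 12.2 of miR-23a. For miR-27a, miR-27c and miR-27d, also below the limit at 17 dph, the ratios in the authors' table were 0.439, 3.72 and 0.524.

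Conserved miRNAs with a like pair of normalized signals were found by the distance between their log2 values on the 2 arrays, over 62 miRNAs outside the families that were detected on both. The nearest to miR-23a were let-7a at a distance of 0.64, miR-26b at 0.75 and let-7d at 0.78, although their log2 differences were 0.039, 1.76 and 0.17 against 0.94 for miR-23a. The nearest to miR-24 were miR-205 at 0.12, miR-455b at 0.12 and miR-143 at 0.16. The same 3 were nearest to miR-27b, at 0.22 for miR-455b, 0.22 for miR-205 and 0.25 for miR-143. With 2 arrays the measure rests on 2 values for each miRNA, and it rests on signal levels of different probes, whose binding differs, rather than on change alone.

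Other miRNAs of vessels and muscle were counted for comparison. Of the vascular list (miR-10, miR-100, miR-126, miR-130, miR-143, miR-145, miR-218, miR-221 and miR-222) 13 of 17 names were detected, of which 1 was called higher, 3 lower and 9 neither, with a median log2 difference of -0.39. The shares over all 126 were 8.73% and 17.5%. The endothelial miR-126 was the one called higher, at a density of 49.2 at 17 dph, below the limit, and 653.4 at 29 dph. miR-221 and miR-222, also abundant in endothelium in mammals, had log2 differences of -0.29 and -1.40, the second called lower. Of the muscle list (miR-1, miR-133, miR-206, miR-499, miR-214 and miR-26) all 9 names were detected, with 2 called higher, 3 lower and 4 neither and a median of -0.36, beside the same 8.73% and 17.5%. Those called higher were miR-1 and miR-26b, and those called lower were miR-133a, miR-133b and miR-214. miR-206 was called neither, at a log2 difference of 0.22. Neither median lay far from the -0.29 of all detected miRNAs.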

How the data were processed

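The labels' protocols state that total RNA of 5 larvae was extracted with Trizol, that small RNAs under 300 nt were isolated by filtration, poly(A)-tailed, and joined to a tag for staining. The array files deposited by the authors hold 1 mean density per spot, a linear intensity judged from the values to be raw. The authors' table holds 1 processed intensity per probe, whose rank correlation with the densities was 0.997 at 17 dph and 0.999 at 29 dph. The scanner and image program were not given in the sources used here.

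Background was removed by the normexp method of limma 3.58.1 (R 4.3.3) over the spots of an array, with an offset of 50 that shrinks the differences of dim probes. Values were log2-transformed, quantile-normalized over the 2961 probe spots and averaged over 3 spots. Probes of the same mature name were averaged. Differences are descriptions without p-values. Python 3.11.15, NumPy 2.4.6, pandas 2.3.3 and SciPy 1.17.1 were used, and the calls were tested on simulated arrays. The simulation started both arrays from the same signal and changed bright probes up and down in equal number. It therefore cannot show how calls behave for changes in dim probes or with an overall difference between the arrays. The members, lists and alternatives were chosen with earlier results of these data known. Named beside the members were star strands, candidates sharing at least 16 bases with a member, the 3 nearest miRNAs to the brightest member (largest summed density) of each family, and 2 lists.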

Additional observations from a re-analysis of the deposited data

How the results depend on the processing

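The call of miR-27b turned with the scaling, since its log2 difference was 0.99 when the arrays were left unscaled. Counts of members called higher and lower, 0 and 1 as reported, were 4 and 0 with no scaling. They were 1 and 5 with the median of probes detected on both arrays, 0 and 6 with the 75th percentile of these probes, 2 and 3 with the median of conserved probes detected on both, and 1 and 0 with quantile normalization over conserved probes alone. Plain background subtraction, the authors' table quantile-normalized and the authors' table as deposited each gave 3 and 3, the table without spots. A 1.5-fold threshold gave 2 and 2, and a 4-fold threshold 0 and 0. Over the 126 detected miRNAs the percentages called higher and lower were 50.8 and 0.794 with no scaling, 4.76 and 65.9 with the median of both-detected probes, 2.38 and 75.4 with the 75th percentile, 11.9 and 36.5 with the median of conserved probes, 11.9 and 8.73 with quantile over conserved probes, 23.8 and 34.1 with plain subtraction, 28.6 and 36.5 in the authors' table quantile-normalized, 18.3 and 38.1 in it as deposited, 14.3 and 31.0 at 1.5-fold and 2.38 and 3.17 at 4-fold.

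Family medians of the log2 difference, 0.55 for miR-23, -0.91 for miR-24 and -0.076 for miR-27 as reported, were 3.02, 1.09 and 0.51 with no scaling. For miR-24 and miR-27 they were -1.33 and -1.91 with the median of probes detected on both arrays. For the 3 families they were 0.14, -1.79 and -2.37 with the 75th percentile, and 1.43, -0.51 and -1.09 with the median of conserved probes. Quantile normalization over conserved probes alone gave 1.05 for miR-23 and -0.47 for miR-24, and plain subtraction gave 0.70, -1.42 and 0.22 for the 3 families. For miR-24 and miR-27, the authors' table gave -1.64 and -0.33 after quantile normalization and -1.63 and -0.93 as deposited. miR-24 stood at -0.022 with the GC trend removed. miR-27 stood at -1.03 over members detected on both arrays, which leaves miR-27b alone.

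The median of miR-23 exceeded that of miR-24 by 1.46 and that of miR-27 by 0.63, and miR-24 minus miR-27 was -0.84. With no scaling, and with each scaling by a single factor, these were 1.94, 2.52 and 0.58. Quantile normalization over conserved probes gave 1.12 for miR-23 minus miR-27 and -0.39 for miR-24 minus miR-27. Plain subtraction gave 2.12 for miR-23 minus miR-24 and -1.64 for miR-24 minus miR-27. The authors' table gave 2.29, 0.98 and -1.31 after quantile normalization, and 2.19 and 1.49 for the first 2 as deposited. Removing the GC trend gave 0.60 for miR-23 minus miR-24 and 0.043 for miR-24 minus miR-27. Members detected on both arrays gave 1.58 for miR-23 minus miR-27 and 0.12 for miR-24 minus miR-27. miR-23 minus miR-24 ranged from 0.60 to 2.29, and miR-24 minus miR-27 changed sign. The single-factor values are equal by construction, and every miR-27 median over 5 members rests largely on the 4 that were below the limit at 17 dph. The cause was not tested beyond the construction of each alternative. Using the authors' table as deposited and the members detected on both arrays were added after the data were seen. The median-based detection limit, a density of 54.9 at 17 dph, also passed miR-27a there, and no other limit changed the members detected. Leaving out an array was not possible with 1 per stage, and no paired analysis was possible because each stage has a single array. Dim probes are limited by the closeness of signal and background.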
